A study of Mus musculus with 4 samples.

Results

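The cells described here were regulatory T cells (Tregs) outside the cell cycle, taken from EO771 mammary tumors of mice. A cell was counted as a member when it was among the cells the authors kept after quality control and its own transcript counts passed a gate. The gate asked for at least 1 unique molecular identifier (UMI, 1 counted RNA molecule) of Foxp3, at least 1 UMI of Cd3d, Cd3e and Cd3g together, and no UMI of Cd8a or Cd8b1. It also asked for S100a8 and S100a9 below 300 and C1qa, C1qb and C1qc below 20 per 10000 UMIs of the cell, which set limits on neutrophil and macrophage transcripts. Cells with both Mki67 and Top2a, which are transcribed in dividing cells, were set aside as cycling Tregs. Members were thus chosen by measured UMIs of the genes of the gate, and levels of these genes are no finding here. The gate found 1268 members among 28429 kept cells. A further 469 cells passed the same gate as cycling Tregs.

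Tregs are CD4 T cells that hold other lymphocytes in check, and the transcription factor Foxp3 defines the lineage. They take up interleukin-2 through the high-affinity receptor chain Il2ra, display the inhibitory receptor Ctla4, and can release transforming growth factor beta from its latent form through the integrin chain Itgb8. In tumors, Tregs commonly carry costimulatory receptors of the tumor necrosis factor receptor family, such as Tnfrsf4 (OX40), Tnfrsf9 (4-1BB) and Tnfrsf18 (GITR).

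Tumors were grown by orthotopic injection of EO771 cells, a mouse mammary cancer line, in female mice on a C57BL/6 background, and were harvested at 1.5 cm3. The comparison was of 2 genotypes, with 2 tumors each. Csf1rfl/fl mice, the controls, carried floxed alleles of Csf1r, the receptor for colony-stimulating factor 1. Lyve1CreCsf1rfl/fl mice carried the same floxed alleles and a Cre recombinase driven by Lyve1, so that Csf1r is deleted in cells that express Lyve1, which include a class of tissue macrophages. The age of the mice was not given in the sources used here. Viable CD45+ leukocytes were sorted, each tumor was marked with 1 of 2 hashtag antibodies, and each of 2 droplet runs pooled 1 tumor of each genotype. Run and tumor pair are therefore the same thing, and the 4 tumors are called Csf1rfl/fl run 1, Csf1rfl/fl run 2, Lyve1CreCsf1rfl/fl run 1 and Lyve1CreCsf1rfl/fl run 2. Sets of 4 values below follow that order.

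The kept cells numbered 8613, 7786, 7248 and 4771 per tumor, with median depths between 3718 and 4668 UMIs per cell. The floxed gene was measured first. Csf1r made up 0.898 and 0.964 per 10000 UMIs of all kept cells in the Csf1rfl/fl tumors, and 0.430 and 0.454 in the Lyve1CreCsf1rfl/fl tumors. Reads of this assay come from transcript 3' ends, which need not lie in the deleted part, so these levels do not check the deletion itself. Lyve1 was seen in 0.209% and 0.116% of kept cells in the Csf1rfl/fl tumors, and in 0.290% and 0.293% in the Lyve1CreCsf1rfl/fl tumors. It was thus not lower in the latter, from 43, 20, 42 and 42 UMIs per tumor. Csf1rfl/fl run 1 stood apart from the other tumors: the doublet caller Scrublet marked 27.9% of its kept cells, against 10.7% to 18.4% in the others, and the assigned hashtag was under 3 times the other in 5.89% of its cells. The runs shared 60 barcodes among kept cells and 0 among Tregs.

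The 1268 Tregs came from all 4 tumors, with 238, 394, 384 and 252 cells. Their summed depth was 1285566, 1880645, 1416122 and 1027199 UMIs per tumor, and the median Treg held 3133.5 UMIs. Scrublet called 34.9%, 19.8%, 16.4% and 11.9% of them doublets, droplets that may hold 2 cells. Because this share was highest in Csf1rfl/fl run 1 and lowest in Lyve1CreCsf1rfl/fl run 2, counts of calls and several values are given with and without these cells. The assigned hashtag was under 3 times the other in 0 Tregs. Mitochondrial transcripts made up between 1.45% and 1.74% of Treg UMIs.

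Many members sat at the edge of the Foxp3 criterion. Foxp3 was counted once in 588 Tregs, 2 times in 354, 3 times in 166, and 4 or more times in 160, with a highest count of 9. Of the 2239 kept cells with any Foxp3 UMI, 275 were left out for a Cd8a or Cd8b1 UMI, 88 for want of a Cd3 UMI and 139 for their S100a8, S100a9 or C1q counts. The highest Treg lay at 299.89 per 10000 for S100a8 and S100a9, and at 19.55 for C1q. Among the members, 361 had a UMI of Mki67 or of Top2a but not of both, and 907 had neither. Foxp3 UMIs also occurred in cells that should lack the gene: 1.68% of 5955 kept cells at or above the S100a8 and S100a9 limit carried one, at a median depth of 2388 UMIs, and 3.73% of 1582 cells at or above the C1q limit, at 6661 UMIs. Of the T cells of the gate (kept cells with a Cd3 UMI and within both limits), 21.6% did.

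The cells are described by 5 markers given for them, Foxp3 (chromosome X:7573644-7595245, forward strand, mm10), Ikzf2 (1:69531214-69687245, reverse), Ctla4 (1:60887000-60915832, forward), Tnfrsf4 (4:156013843-156016612, forward) and Itgb8 (12:119158022-119238802, reverse). The markers were chosen with earlier results of these data known, so they are no independent check of the label. Foxp3 chose the cells and is a description. Its level was 3.11, 4.66, 4.97 and 5.62 per 10000 Treg UMIs. Of the other 4 markers, 252 Tregs (19.9%) carried all, 561 carried 3, 371 carried 2, 75 carried 1 and 9 carried none. Ikzf2 (Helios, a transcription factor of the Ikaros family) was detected in 96.1% of Tregs, Tnfrsf4 in 86.1%, Ctla4 in 65.2% and Itgb8 in 29.2%. Cd4 itself gave a UMI in 666 of the 1268 cells, and 602 had none.

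Members near the edge of the gate were set beside the rest. In Tregs with 1 Foxp3 UMI, Ikzf2 stood at 9.59, 16.8, 15.5 and 18.1 per 10000, and in the 680 with 2 or more at 11.3, 17.3, 15.8 and 16.1, so the levels overlapped. Il2ra stood at 1.98, 3.22, 3.84 and 3.08 in the former and at 3.47, 3.61, 4.97 and 3.88 in the latter, higher in 4 of 4 tumors with more Foxp3. Pcna, a factor of DNA replication, stood at 2.09, 1.56, 1.77 and 1.90 in Tregs with a UMI of Mki67 or Top2a, and at 0.900, 0.766, 1.05 and 1.19 in those with neither. Median depths differed between these cells, with 2892 and 3308.5 UMIs by Foxp3 count and 4330 and 2801 by Mki67 and Top2a. These values follow from the gate and were not tested.

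Other T cell classes from the same tumors served as comparisons. Foxp3-negative Cd4 T cells (660) had a Cd4 UMI, a Cd3 UMI and no UMI of Foxp3, Cd8a or Cd8b1. CD8 T cells (2636) had Cd8a or Cd8b1 and neither Cd4 nor Foxp3. Both were taken without cycling cells. The remaining class was the cycling Tregs. In the order Foxp3-negative Cd4, CD8 and cycling, median depths were 3266.5, 4561.5 and 8520 UMIs per cell, against 3133.5 in Tregs, so shares of cells were also compared after every cell was thinned to 2000 UMIs. At that depth Ikzf2 was found in 87.6% of 986 Tregs, 55.6% of 511 Foxp3-negative Cd4 T cells and 28.97% of 2416 CD8 T cells. Itgb8 was found in 18.7%, 8.22% and 0.662% of these cells, and Ctla4 in 50.7%, 29.7% and 9.89%. Foxp3 was found in 65.9% of the thinned Tregs, so a cell without a Foxp3 UMI can still be a Treg, and the Foxp3-negative Cd4 class may hold some. The thinning left out 282 Tregs, 149 Foxp3-negative Cd4 T cells and 220 CD8 T cells that were shallower.

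**Figure D1:**
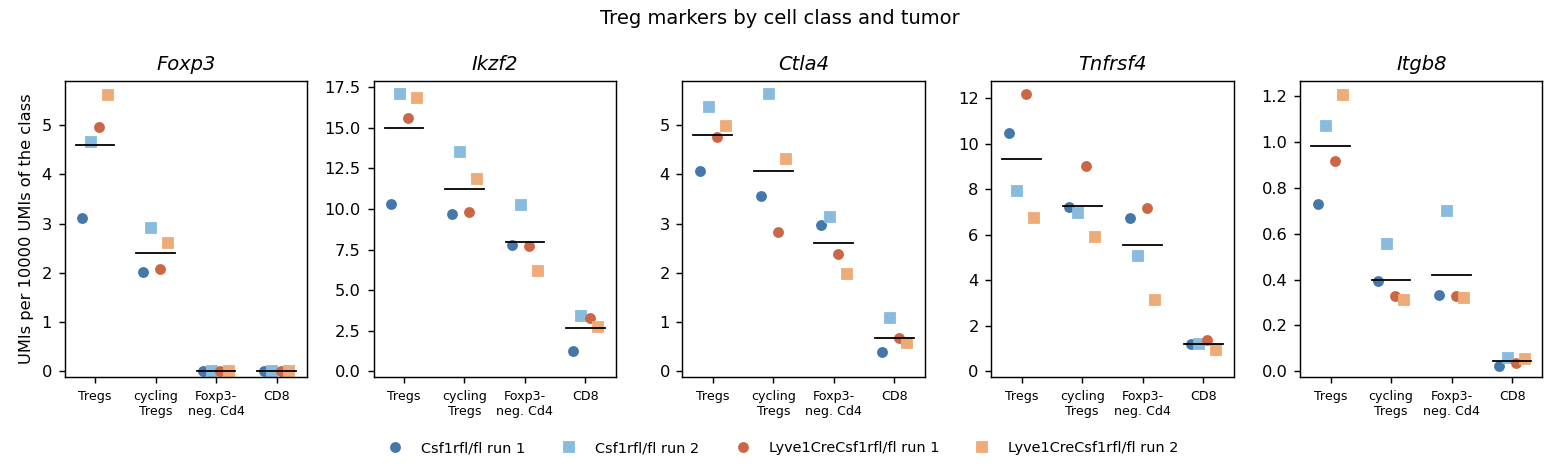
Levels of Foxp3, Ikzf2, Ctla4, Tnfrsf4 and Itgb8 as UMIs per 10000 UMIs of a cell class (vertical axis) in Tregs, cycling Tregs, Foxp3-negative Cd4 T cells and CD8 T cells, with a point for each of the 4 tumors and a black bar at their mean. Foxp3 is at 0 in the last 2 classes by the gate, and Ikzf2 runs from 10.3 to 17.1 in Tregs, from 6.18 to 10.3 in Foxp3-negative Cd4 T cells and from 1.24 to 3.37 in CD8 T cells.

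The Tregs were not uniform. Clustering of these cells alone, without the genes of the gate, gave 7 sub-groups, which are described by their leading genes and are not tested. Leading genes were ranked by fold after a small constant was added to both levels, and the levels are given here. Sub-group 1, the most numerous with 627 cells, was led by Trp53inp1, at 1.94 per 10000 against 0.665 in the other Tregs. Itgae (CD103, an integrin chain that binds E-cadherin), Bcl11b and Izumo1r (folate receptor 4) were also among its leading genes. It had the highest Foxp3 level, 7.88 per 10000, and an Ikzf2 level of 24.5. Sub-group 2 held 212 cells and was led by Pclaf (1.61 against 0.163), Stmn1, Hells and Mcm5, genes of DNA replication and cell division. Its Foxp3 level was 4.19. Although no cell carried both Mki67 and Top2a, members of this sub-group thus held other transcripts of cycling cells. Sub-group 4, with 132 cells, was led by the interferon-stimulated genes Ifit3b (2.43 against 0.382), Ifit1, Iigp1 and Usp18. Isg15, another interferon-stimulated gene, stood at 15.8 per 10000 there, at 14.98, 14.3 and 14.7 in sub-groups 3, 5 and 6, and at 3.21, 3.40 and 4.90 in sub-groups 1, 2 and 7.

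The remaining sub-groups carried leading genes of other leukocytes. Sub-group 3 (201 cells) was led by Cxcl9 (3.29 per 10000 against 0.123 in the other Tregs), Lyz2, Ms4a6c, Tgfbi and Fcer1g, genes of mononuclear phagocytes. Its median depth was 8190 UMIs, against 2267 in sub-group 1, and Scrublet called 81.1% of it doublets, against 0.797% in sub-group 1. Foxp3 stood at 2.07 and Ikzf2 at 6.97 per 10000 there. Sub-group 5 (38 cells) was led by Fscn1, Ccl22 and Ccr7, genes of mature dendritic cells, sub-group 6 (37 cells) by G0s2, Cxcl2, Cxcl3 and Retnlg of neutrophils, and sub-group 7 (21 cells) by Gzma, Gzmc, Klra7 and Klrb1c of natural killer cells. Scrublet called 73.7%, 89.2% and 66.7% of these doublets. The source of these transcripts was not tested.

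Sub-groups occurred in every tumor, in different shares. Sub-group 1 made up 39.1%, 45.9%, 56.3% and 54.4% of the Tregs of a tumor, and sub-group 2 19.3%, 14.7%, 17.7% and 15.9%. Sub-group 3 made up 24.4% and 18.0% in the Csf1rfl/fl tumors and 10.2% and 13.1% in the Lyve1CreCsf1rfl/fl tumors. Sub-group 4 made up 6.30%, 14.2%, 8.07% and 11.9%, with the higher share in run 2 for both genotypes.

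**Figure D2:**
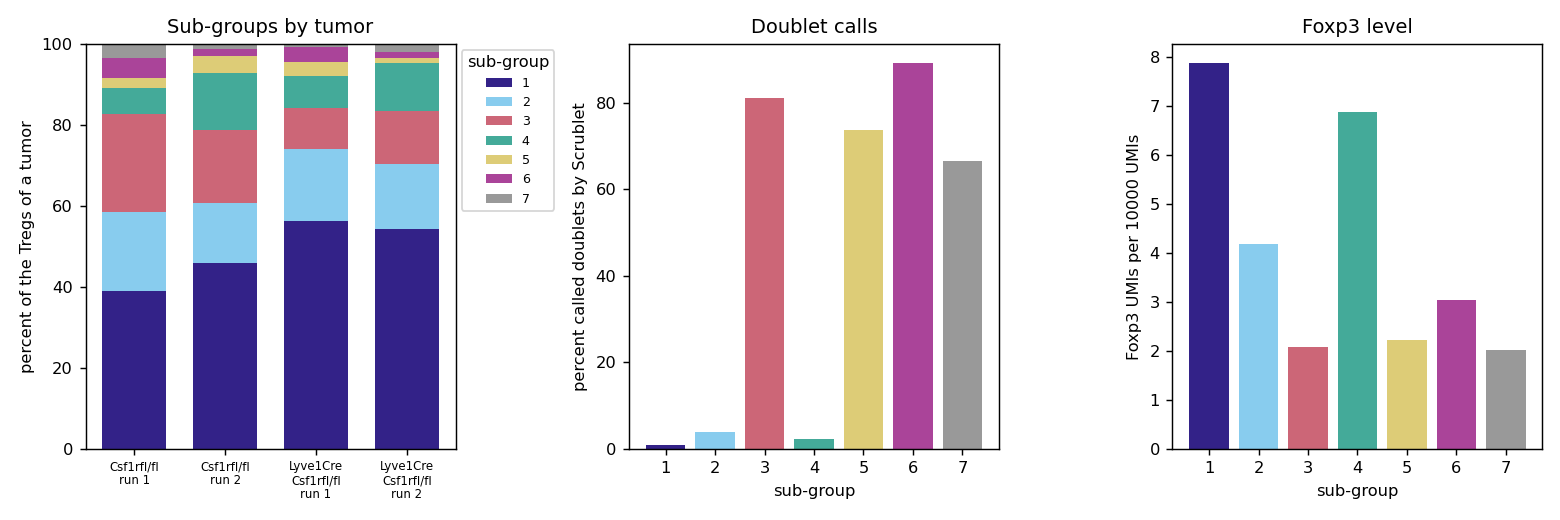
Left, percent of each tumor's Tregs in sub-groups 1 to 7 (stacked); middle, percent of each sub-group called doublets by Scrublet; right, Foxp3 UMIs per 10000 in each sub-group. Sub-groups 3, 5, 6 and 7 have 66.7% to 89.2% called doublets and Foxp3 levels of 2.03 to 3.04, and sub-groups 1, 2 and 4 have at most 3.77% and levels of 4.19 to 7.88.

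Marker lists of other cells were also summed over all Tregs of a tumor. The 13 mononuclear phagocyte markers, all detected, summed to 55.5, 36.6, 24.6 and 28.7 per 10000 Treg UMIs, and to 16.3, 14.7, 7.82 and 14.2 without the cells Scrublet called. The 10 neutrophil markers summed to 28.1, 17.4, 20.1 and 14.8, and to 5.99, 5.50, 8.79 and 6.41 without them. Of the phagocyte markers 3, and of the neutrophil markers 2, were genes of the gate, which limited their levels and so these sums. The dendritic cell list stood at 33.5, 49.8, 35.7 and 33.5, and at 16.5, 27.5, 20.003 and 26.0 without them. The natural killer list stood at 5.71, 1.44, 1.67 and 3.61, and at 9.74, 1.27, 0.201 and 4.65 without them, and the B cell list at 2.40, 4.07, 3.13 and 6.503. Of the 6 CD8 T cell markers, Cd8a and Cd8b1 were at 0 by the gate, and Ccl5, which many T cells transcribe, was the highest of the rest. The gamma delta T cell list reached at most 0.122 with Sox13 at 0, and the tumor and stromal list at most 0.809 with Tagln at 0.

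Tregs made up 2.76% and 5.06% of the kept cells in the Csf1rfl/fl tumors, and 5.30% and 5.28% in the Lyve1CreCsf1rfl/fl tumors. The means were 3.91% ± 1.62 and 5.29% ± 0.0114 (SD, n = 2 each), a difference of 1.38 points that was 2.53 in run 1 and 0.222 in run 2. The exact permutation test gave p = 0.333, two-sided, which is the smallest value that 2 tumors against 2 can give. Without Csf1rfl/fl run 1, the tumor with the low share, the difference was 0.230 points. It was -0.284 over the 9331, 9338, 10746 and 10779 barcodes of the raw table that had under 5% mitochondrial UMIs and an assigned hashtag at least 3 times the other, kept by the authors or not. Treg shares over those barcodes were 2.73%, 5.49%, 4.35% and 3.31%. The largest change was in Lyve1CreCsf1rfl/fl run 2, where Tregs made up 5.28% of the kept cells. Lymphocyte clusters found almost only in that tumor had been removed from the kept cells. The part of this removal in the change of sign was not tested. Of the T cells of the gate, Tregs made up 8.78%, 17.8%, 16.5% and 12.2%, so the genotypes overlapped. The difference of 1.10 points was 7.73 in run 1 and -5.54 in run 2 (exact permutation p = 1). Cycling cells made up 26.8% and 24.8% of the Foxp3-positive T cells in Csf1rfl/fl tumors and 27.5% and 29.6% in Lyve1CreCsf1rfl/fl tumors, a difference of 2.79 points (exact permutation p = 0.333). This difference was 0.339 points with at least 2 Foxp3 UMIs, 1.01 after thinning and 0.996 over the same barcodes of the raw table. Shares cannot tell fewer Tregs from more of other cells, and their exact binomial intervals in the plot cover counting error only.

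For genes, UMIs were summed per tumor and class and tested with edgeR's quasi-likelihood test across all genes that passed a filter on low counts. Genes of the gates, Cd4 among them, were left out of the tests except between genotypes. The tumor was a block between classes, and a Benjamini-Hochberg adjusted p under 0.05 was a call. Gene levels below are UMIs per 10000 UMIs of the class, fold changes are log2 with standard errors (SE), and adjusted p-values come from this edgeR test. The SE was derived from the same test, as the size of the log2 fold change divided by the square root of its F statistic. The comparisons with the 3 other classes share the same Treg counts. Gene lists are described by their counts beside the share called over all genes.

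Against Foxp3-negative Cd4 T cells, 9 of 17 tested genes of the Treg identity list and 6 of 16 costimulatory genes were higher in Tregs, and 2 of the latter and 3 of 9 helper genes were lower. Of the 7665 genes tested, 171 (2.23%) were called, 88 higher in Tregs (1.15%) and 83 lower (1.08%). None of the identity list was lower, and its median log2 fold change was 0.60 beside -0.01 over all genes. Ikzf2 stood at 10.3, 17.1, 15.6 and 16.8 in Tregs and at 7.75, 10.3, 7.71 and 6.18 in Foxp3-negative Cd4 T cells. It was higher in Tregs in 4 of 4 tumors, by 0.85 ± 0.13 (adjusted p = 0.00368). Ctla4 stood at 4.07, 5.37, 4.76 and 4.99 against 2.96, 3.12, 2.38 and 1.98, with no overlap between the classes (0.83 ± 0.11, adjusted p = 2.34e-05). Itgb8, the integrin chain that activates latent transforming growth factor beta, stood at 0.731, 1.07, 0.918 and 1.21 against 0.332, 0.699, 0.328 and 0.3199. It was higher by 1.19 ± 0.18 (adjusted p = 8.93e-05).

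Itgae had the largest rise of the named genes, at 1.05, 1.57, 2.13 and 2.31 against 0.588, 0.580, 0.757 and 0.563 (1.41 ± 0.15, adjusted p = 7.25e-07). Il2ra stood at 2.62, 3.46, 4.41 and 3.59 against 1.69, 1.96, 2.06 and 1.43 and was higher by 0.92 ± 0.11 (adjusted p = 1.29e-06). Its partner Il2rb, shared with the interleukin-15 receptor, did not pass (0.31 ± 0.11, adjusted p = 0.159), nor did the common chain Il2rg (0.01 ± 0.10, adjusted p = 0.991). Further identity genes that passed were Ikzf4 (Eos, a partner of Foxp3) at 0.76, Tnfrsf18 at 0.60 and Capg, which caps actin filaments, at 0.37. Nrp1, a surface receptor often used to mark thymus-derived Tregs, had a log2 difference of -0.73 ± 0.21 that did not pass (adjusted p = 0.0688).

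Among costimulatory and tumor necrosis factor receptors, 6 of 16 tested genes were higher and 2 lower. Tnfrsf4 stood at 10.5, 7.92, 12.2 and 6.72 against 6.73, 5.06, 7.19 and 3.15 (0.73 ± 0.09, adjusted p = 3.75e-06). Levels of both classes were higher in run 1 than in run 2, so that the classes overlapped between runs but not within a tumor. Tnfrsf9 stood at 6.32, 7.59, 9.24 and 7.13 against 4.68, 4.96, 4.16 and 2.73 (0.84 ± 0.13, adjusted p = 0.00201). Icos, a costimulatory receptor of the CD28 family, stood at 2.78, 4.83, 5.08 and 4.96 against 2.08, 3.69, 3.003 and 2.57 (0.58 ± 0.10, adjusted p = 0.000427). Cd27 was higher by 0.77 and Tnfrsf1b, the type 2 receptor for tumor necrosis factor, by 0.66. Lower in Tregs were Cd226, an activating receptor that competes with Tigit for ligands, with a log2 fold change of -1.45 (0.156, 0.250, 0.169 and 0.195 against 0.498, 0.580, 0.492 and 0.461), and Cd40lg, the ligand by which helper T cells activate antigen-presenting cells (log2 fold change -2.12 ± 0.27, adjusted p = 4.55e-06).

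Of the suppressive molecules, 3 of 17 tested genes were higher and 1 was lower. Besides Ctla4 and Itgb8, the cytotoxic protease Gzmb stood at 7.39, 3.46, 5.30 and 4.90 against 4.83, 2.25, 3.29 and 2.15 (0.72 ± 0.10, adjusted p = 1.82e-05). Furin, a protease that processes the transforming growth factor beta precursor, stood at 1.14, 1.23, 1.21 and 1.18 against 2.02, 2.38, 2.30 and 1.65 (-0.85 ± 0.11, adjusted p = 1.15e-05). The cytokine genes Il10 (0.56 ± 0.26, adjusted p = 0.374) and Tgfb1 (0.05 ± 0.13, adjusted p = 0.941) did not pass. Of the checkpoint receptors, Ctla4 was higher and Pdcd1 (PD-1, -0.69) and Cd96 (-1.07) were lower, of 12 tested. Pdcd1 stood at 0.552, 0.776, 0.862 and 0.701 against 1.28, 1.52, 0.984 and 0.768, with classes that overlapped across tumors.

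The list of effector Treg factors and tissue receptors had 3 higher and 1 lower of 17. Maf, a transcription factor of effector Tregs, stood at 7.60, 9.42, 8.78 and 9.998 against 5.49, 7.22, 4.88 and 4.56 (0.65 ± 0.10, adjusted p = 0.000209). Klrg1, an inhibitory receptor of differentiated lymphocytes, stood at 0.778, 0.893, 1.29 and 0.779 against 0.332, 0.417, 0.606 and 0.422 (1.02 ± 0.16, adjusted p = 8.75e-05). The other gene that passed upward was Tnfrsf9, and Bhlhe40, a regulator of cytokine genes, was lower (-0.51). Ccr8, a chemokine receptor known from tumor Tregs, had a difference of 0.83 ± 0.24 that did not pass (adjusted p = 0.073).

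Among helper genes, all 9 tested members had negative values, with a median of -2.12, and 3 passed. Tnfsf8 (CD30 ligand) stood at 0.07001, 0.0372, 0.134 and 0.0876 in Tregs and at 0.652, 0.312, 1.39 and 1.42 in Foxp3-negative Cd4 T cells (-3.50 ± 0.21, adjusted p = 1.12e-12). Tnfsf11 (RANK ligand) stood at 0.0233, 0.0425, 0.0353 and 0.0681 against 0.307, 0.372, 0.454 and 0.409 (-3.24 ± 0.29, adjusted p = 1.66e-08). Cd40lg was the remaining gene. Ifng, the cytokine of type 1 helper cells, stood at 0.148, 0.175, 0.325 and 0.156 against 0.703, 2.49, 0.555 and 1.91. Its levels did not overlap, but its spread in the second class was wide and it did not pass (-2.73 ± 0.66, adjusted p = 0.277). Il4, Il13, Il21 and Il22 had 0 UMIs in Tregs, which allows levels of up to 0.00535 per 10000 at a floor of 3 UMIs over the group. In Foxp3-negative Cd4 T cells without the cells Scrublet called, Il22 was also at 0 in every tumor. Il4, Il13 and Il21 reached at most 0.0947, 0.0467 and 0.284 per 10000 there.

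Among genes of resting lymphocytes, 1 of 12 was higher and 3 were lower. Tcf7, a transcription factor of naive and memory T cells, stood at 0.0856, 0.181, 0.134 and 0.652 against 0.485, 0.476, 0.618 and 2.05 (-1.89 ± 0.18, adjusted p = 7.98e-08). Bcl2, a survival factor, was lower (-1.69), as was S1pr1, the receptor for egress from tissue (-0.77). Il7r (15:9505788-9530176, reverse) was higher by 0.37 ± 0.09 (adjusted p = 0.0299), at 3.91, 3.53, 4.98 and 3.20 against 3.21, 2.90, 3.20 and 2.32. In the chemokine receptor and adhesion list, 3 of 19 were higher, namely Itgae, its partner chain Itgb7 (0.71) and Ccr2 (0.76), and 3 were lower, namely Itgb1 (-1.05), Itga4 (-0.86) and S1pr1. Ccr2, the receptor for Ccl2, stood at 2.59, 4.06, 3.33 and 3.26 against 1.55, 2.59, 1.70 and 1.74.

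Other named genes that were higher were Gm4841 (1.29), the transcription factor Myb (1.08), Neb (1.01), the lipid receptor Gpr55 (0.99) and Chchd10 (0.97). Other named genes that were lower were Themis (-1.84), which tunes T cell receptor signaling, the actin regulator Evl (-1.42), Ramp3 (-1.33) and Hmox1 (-1.21), the heme oxygenase. Of the cytokine receptor and STAT list, Il2ra and Il7r were higher and Il18rap (-0.94) lower of 30. None of 24 T cell receptor signaling genes, 14 MHC class I genes, 20 glycolysis and hypoxia genes or 17 cell cycle genes was called by edgeR. Of 25 interferon-stimulated genes, Gbp3 was higher (0.62) and Ifit2 lower (-0.54). Of the marker lists of other cells, 0 of 10 phagocyte and 0 of 7 neutrophil genes were called by edgeR, while Ighm of the B cell list was higher (0.64) and Nkg7 of the CD8 T cell list lower (-0.52).

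The number of calls depended on the cells and the fit. Without the cells Scrublet called, 358 genes were called, of which 138 were among the 171 in the same direction, and the identity list again had 9 higher and 0 lower of 17, where 2.54% of all genes were higher. Without the tumor as a block, 34 were called and the identity list had 4 higher beside 0.17% of all genes, and DESeq2 called 57. Leaving out Csf1rfl/fl run 1 gave 324 calls and leaving out Csf1rfl/fl run 2 gave 89. With library totals in place of TMM factors, 102 genes were higher and 65 lower.

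**Figure D3:**
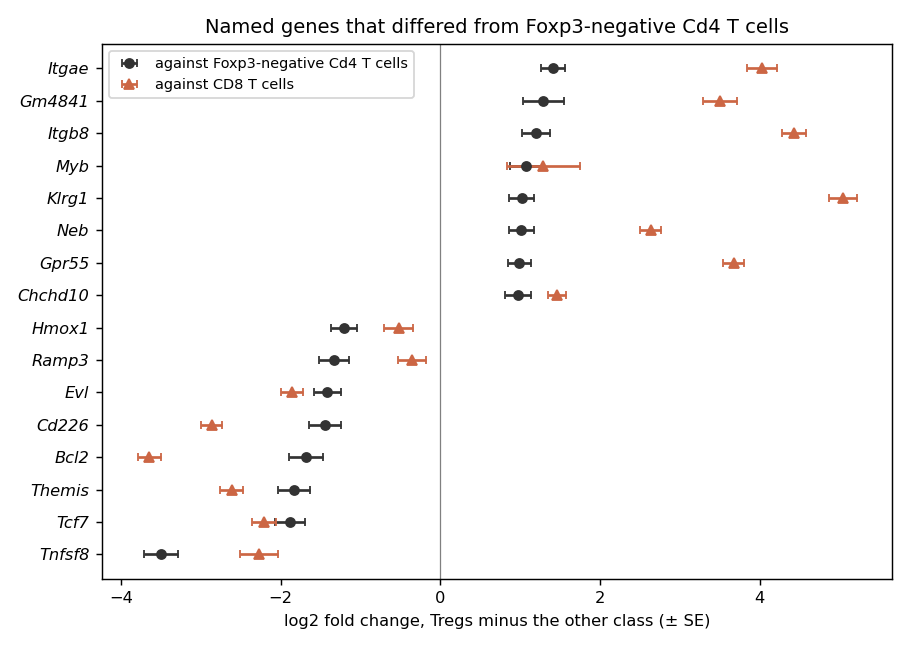
Log2 fold change with SE (horizontal axis) between Tregs and Foxp3-negative Cd4 T cells (circles) of the 8 most raised and 8 most lowered called genes among those with a mean log2 CPM of at least 5 and the same direction in each tumor, with the value of the same genes against CD8 T cells (triangles). Values against Foxp3-negative Cd4 T cells run from -3.50 (Tnfsf8) to 1.41 (Itgae), and Klrg1, Itgb8 and Itgae reach 5.04, 4.43 and 4.02 against CD8 T cells.

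Against CD8 T cells the difference was broad. Of 9725 genes tested, 2456 (25.3%) were called, 1173 higher in Tregs (12.1%) and 1283 lower (13.2%). In the identity list 14 of 17 tested genes were higher, with a median of 2.07 beside -0.02 over all genes. Itgb8 stood at 0.0246, 0.0578, 0.0340 and 0.0531 in CD8 T cells, and was higher in Tregs by 4.43 ± 0.15 (adjusted p = 9.07e-15). Il2ra stood at 0.322, 0.601, 0.449 and 0.521 (2.76 ± 0.10), Ctla4 at 0.389, 1.09, 0.683 and 0.565 (2.75 ± 0.19), and Ikzf2 at 1.24, 3.37, 3.29 and 2.72 (2.42 ± 0.15). The identity genes that were lower in Tregs were Nrp1 (-1.65) and Il2rb (-0.33), the latter at 3.78, 6.15, 4.55 and 4.36 in CD8 T cells against 3.14, 4.51, 4.24 and 4.62.

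Costimulatory receptors were higher in 13 of 17 and lower in 1, Cd226 (-2.87). Tnfrsf4 was at 1.22, 1.18, 1.35 and 0.952 in CD8 T cells (2.83 ± 0.07, adjusted p = 2.6e-16), and Icos at 0.343, 0.717, 0.657 and 0.671 (2.76 ± 0.07, adjusted p = 2.6e-16). Suppressive molecules were higher in 11 of 17, with Lrrc32 (GARP, which anchors latent transforming growth factor beta) at 4.40, Areg, a growth factor of tissue repair, at 4.25 and Il10 at 4.11. Lag3 (-1.23) and Prf1 (-3.24) were lower. Prf1, the pore-forming protein of cytotoxic cells, stood at 0.521, 0.223, 0.275 and 0.789 against 4.02, 3.77, 3.32 and 3.22 in CD8 T cells, whereas Gzmb did not pass (-0.14 ± 0.18, adjusted p = 0.671).

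Checkpoint receptors went in both directions, with 2 higher (Ctla4 and Btla) and 6 lower of 13, among them Cd160 (-4.67) and Pdcd1 (-1.33). Of the effector Treg list, 13 were higher and 4 lower of 18. Klrg1 had the largest rise of the called genes with a mean log2 CPM of at least 5 and the same direction in each tumor. It stood at 0.0215, 0.0154, 0.0340 and 0.0281 in CD8 T cells (5.04 ± 0.17, adjusted p = 7.55e-15). Maf was higher by 3.23, Ccr8 by 2.37 and Rora, a nuclear receptor of tissue Tregs, by 2.35, while Cxcr6, a chemokine receptor of resident T cells, was lower (-3.19). Other named genes that were higher were Gpr55 (3.67), Lmna (3.58) and Cd81 (3.21). Resting genes were higher in 1 and lower in 7 of 15, with Bcl2 at -3.64 and Tcf7 at -2.21. Chemokine receptors and adhesion genes were higher in 8 and lower in 4 of 19, cytokine receptors and STAT genes higher in 16 and lower in 10 of 30, and T cell receptor signaling genes higher in 10 and lower in 7 of 24.

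Interferon-stimulated genes were higher in 18 of 25 tested and lower in 0, with a median of 0.38. Ifi27l2a stood at 123, 82.1, 110 and 86.2 against 88.02, 52.4, 67.8 and 49.5 (0.51 ± 0.04, adjusted p = 1.28e-08). MHC class I genes were higher in 8 and lower in 2 of 14, glycolysis genes higher in 7 and lower in 2 of 20, and helper genes higher in 1 and lower in 4 of 9.

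The named genes that were lower than in CD8 T cells included granzyme and receptor genes. Of the cell cycle list 1 of 20 tested genes was higher and 6 were lower, and of the natural killer list 0 of 8 were higher and 4 lower. Gm156 had 0 UMIs in Tregs and 1079 in CD8 T cells, at least 135-fold lower at a floor of 3 UMIs over the group. Csf1rfl/fl run 1 held 881 of these UMIs, and without that tumor the bound was 33.8-fold. Gzmf stood at 0.00778, 0.0106, 0.00706 and 0.00974 in Tregs against 1.36, 1.75, 0.849 and 1.33 (-7.30 ± 0.21, adjusted p = 5.54e-16). Dapl1 had a log2 fold change of -7.88 from very few UMIs in Tregs, a value that depends on the prior count. Tcrg-C2 (-6.15), Trgv2 (-5.93), Nrgn (-5.30) and the natural killer receptor chain Klrc1 (-4.58) were also lower. Tcrg-C2 is one of several near-identical T cell receptor gamma constant genes, so its counts are uncertain. Without the cells Scrublet called, 2390 genes were called, and the identity list had 13 higher and 2 lower of 17 and the interferon-stimulated list 17 higher and 0 lower of 25, where 13.2% of all genes were higher. Called genes numbered 1103 without the tumor block, 1259 by DESeq2 and 1600 after thinning. With library totals in place of TMM factors, 2842 were called, 2031 higher and 811 lower, and the median of all genes moved from -0.02 to 0.12, so that log2 differences near 0.1 have no set direction here.

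**Figure D4:**
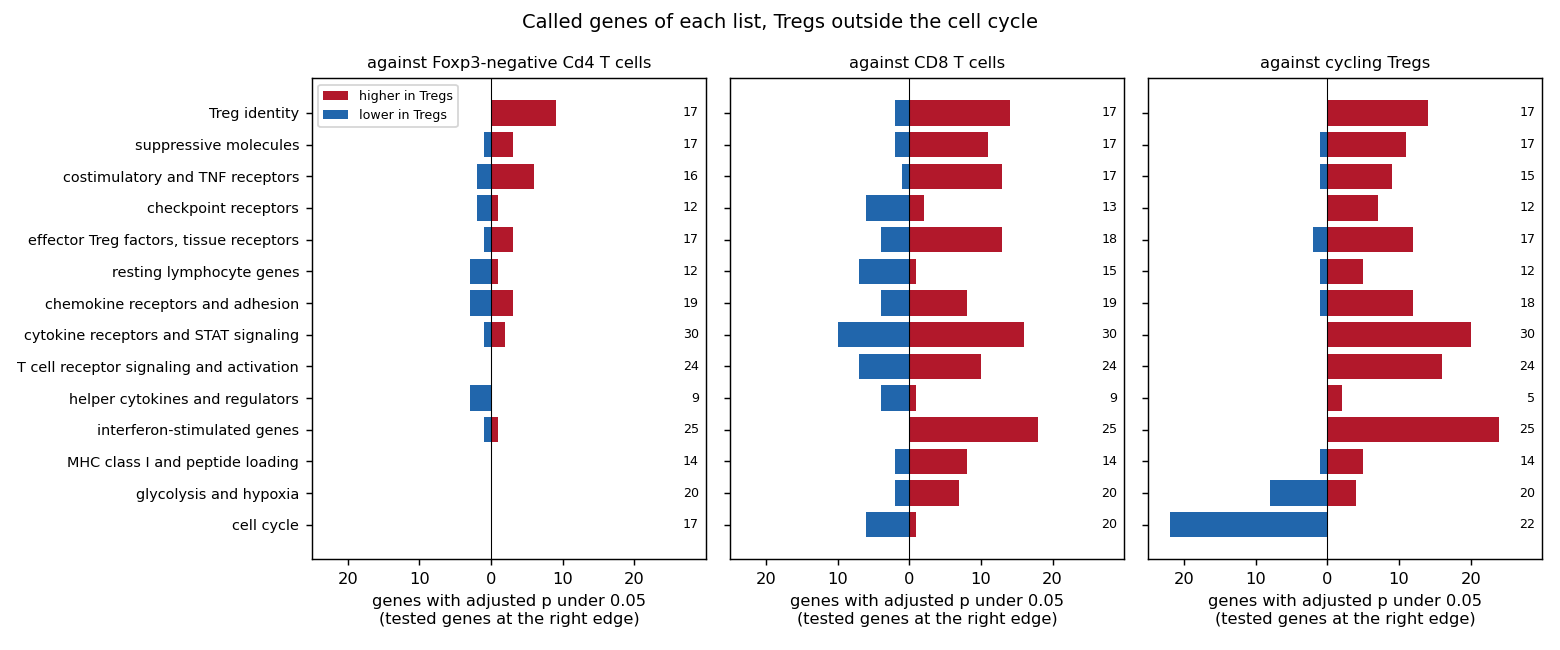
Number of genes of each list with adjusted p under 0.05 that were higher (red, to the right) or lower (blue, to the left) in Tregs than in Foxp3-negative Cd4 T cells, CD8 T cells and cycling Tregs, with the number tested at the right edge. The identity list has 9, 14 and 14 higher of 17, and the cell cycle list, which the gate used, has 22 of 22 lower than in cycling Tregs.

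Against cycling Tregs the gate itself separated the cells, so cell cycle genes are a description: 22 of 22 listed genes were lower in Tregs, with a median of -2.39. Falls were ranked among called genes with a mean log2 CPM of at least 5 and the same direction in each tumor. The largest were those of Esco2 (-5.97), Nusap1 (-5.72), Hist1h3c (-5.35), Hmmr (-5.10), Hist1h2ap (-4.98), Hist1h2bm (-4.94), Ckap2l (-4.93) and Hist1h2ae (-4.92), genes of chromosome cohesion, the spindle and replication-coupled histones. Histone genes of these clusters are near-identical copies, and their counts are uncertain. Of all genes, 3797 of 8687 were called (43.7%), 1774 higher (20.4%) and 2023 lower (23.3%). With library totals in place of TMM factors the balance turned, with 2185 higher and 1723 lower.

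Lineage genes differed by unequal amounts between both states. Il2ra stood at 2.62, 3.46, 4.41 and 3.59 in Tregs and at 2.63, 4.39, 3.50 and 4.16 in cycling Tregs (-0.14 ± 0.09, adjusted p = 0.222), and Ctla4 at 3.55, 5.64, 2.82 and 4.31 in cycling Tregs (0.18 ± 0.10, adjusted p = 0.136). Neither difference passed. Ikzf2 (0.32 ± 0.07) and Tnfrsf4 (0.25 ± 0.08) were higher outside the cycle by small amounts. In the identity list 14 of 17 were higher and 0 lower, with a median of 0.53 beside 0.01 over all genes. Itgae stood at 0.336, 0.636, 0.712 and 0.720 in cycling Tregs and was higher in Tregs outside the cycle in 4 of 4 tumors (1.44 ± 0.11, adjusted p = 2.66e-11). Itgb8 stood at 0.392, 0.553, 0.328 and 0.313 in cycling Tregs (1.21 ± 0.15, adjusted p = 2.62e-07).

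Cytokine receptor and STAT genes were higher in 20 and lower in 0 of 30. Il7r, the interleukin-7 receptor chain of quiescent lymphocytes, stood at 1.61, 1.52, 1.69 and 0.976 in cycling Tregs, below every value outside the cycle (1.35 ± 0.09, adjusted p = 1.7e-12). Suppressive molecules were higher in 11 and lower in 1 of 17, the latter Lgals1 (-0.32 ± 0.07), costimulatory receptors higher in 9 and lower in 1 of 15, checkpoint receptors higher in 7 and lower in 0 of 12, and T cell receptor signaling genes higher in 16 and lower in 0 of 24. Effector Treg genes were higher in 12 of 17, with Maf at 0.72 and Tnfrsf9 at 0.70, and lower in 2, Irf4 (-0.84 ± 0.17) and Batf (-0.40 ± 0.11), which are factors that act together in activated T cells. Of the resting list, 5 were higher and 1 lower of 12, and of the chemokine and adhesion list 12 higher and 1 lower of 18. S1pr1 was the gene that was lower in both lists (-0.72 ± 0.22).

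Interferon-stimulated genes were higher in 24 of 25, with a median of 0.58. Irf7, a regulator of interferon genes, stood at 6.87, 5.72, 3.50 and 4.37 against 3.22, 2.34, 1.34 and 1.73 (1.19 ± 0.08, adjusted p = 2.41e-12). Glycolysis and hypoxia genes went the other way for 8 of 20, among them Ldha (-0.55 ± 0.07), Pgk1 (-0.46 ± 0.09) and Gapdh (-0.38 ± 0.07), and 4 were higher. Ldha, which makes lactate, stood at 5.95, 5.29, 6.53 and 5.80 against 8.06, 8.06, 8.33 and 8.12, with no overlap. MHC class I genes were higher in 5 and lower in 1 of 14.

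Transcripts of other cells moved with this comparison. Rises outside the cycle were ranked among called genes with a mean log2 CPM of at least 5 and the same direction in each tumor. The largest were Chil3 (2.37), Vcan (2.29), Ifit1bl1 (2.16), Ccl12 (2.14), Olfm1 (1.996), Ccl6 (1.95), Hp (1.91) and F10 (1.84), several of them monocyte and neutrophil genes. Phagocyte markers were higher in 8 of 10 and neutrophil markers in 3 of 7, and the phagocyte list summed to 28.4, 12.8, 8.68 and 6.64 in cycling Tregs. Without the cells Scrublet called, 16 of 17 identity genes, 24 of 25 interferon-stimulated genes and 23 of 28 cytokine receptor genes were higher, beside 1628 of all 7688 genes (21.2%). The part of other cells in these differences was not tested. Without the tumor block 2429 genes were called, and 7 genes of the identity list and 14 of the interferon-stimulated list were higher, beside 11.4% of all genes. DESeq2 called 2123, and thinning to 2000 UMIs left 1475 calls.

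Between genotypes, Tregs were first compared in a fit that did not pair the tumors of a run. Of 8878 genes tested in Tregs, edgeR called 1 (0.0113%), Ccl2, lower in Lyve1CreCsf1rfl/fl tumors, and 365 genes had an unadjusted p under 0.05. Ccl2 (11:82035571-82037453, forward), a chemokine that attracts monocytes, stood at 1.76 and 2.06 in Csf1rfl/fl Tregs and at 0.304 and 0.516 in Lyve1CreCsf1rfl/fl Tregs (-2.28 ± 0.28, adjusted p = 0.00539). Its levels were 0.334, 0.936, 0.0604 and 0.298 without the cells Scrublet called. The log2 fold change was then -2.001 and no longer passed, and it did not pass either in Tregs with at least 2 Foxp3 UMIs (-1.82) or after thinning (-1.79). Among Foxp3-negative Cd4 T cells that Scrublet did not call, Ccl2 was also lower in Lyve1CreCsf1rfl/fl tumors. It stood there at 0.770, 1.44, 0.153 and 0.410, so a lower level was not particular to Tregs. The summed phagocyte markers given above were 55.5 and 36.6 in Csf1rfl/fl Tregs and 24.6 and 28.7 in Lyve1CreCsf1rfl/fl Tregs. These sums were 16.3 and 14.7 against 7.82 and 14.2 without the cells Scrublet called. Outside the genes of the gate, the 10 tested phagocyte markers had a median log2 difference of -0.72 and the 8 tested neutrophil markers of -0.46, and edgeR called none. After those cells were left out, the medians were -0.27 over 9 tested phagocyte markers and 0.49 over 5 tested neutrophil markers, so that the neutrophil list turned. Csf1r itself, which lymphocytes do not usually express, stood at 0.653, 0.606, 0.205 and 0.341 in Tregs, and at 0.0393, 0.201, 0.0503 and 0.176 without the cells Scrublet called.

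Of the markers, Foxp3 chose the cells and is given as a description, at the levels above and at 5.40, 6.27, 5.98 and 6.80 without the cells Scrublet called. The other 4 did not pass between genotypes. Their differences were 0.22 ± 0.31 for Ikzf2, 0.02 ± 0.26 for Ctla4, 0.02 ± 0.35 for Tnfrsf4 and 0.20 ± 0.26 for Itgb8, each smaller than its SE. In every list edgeR called 0 genes. The identity list without Foxp3 had a median of 0.19, with 14 of 17 values positive, and of 0.02 without the cells Scrublet called, with 10 of 17 positive. Interferon-stimulated genes had a median of -0.22, with 17 of 25 negative, and -0.05 without those cells.

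With the run as a replicate block, which pairs the tumors that were pooled and processed together, 80 of 8878 genes were called, 7 higher (0.0788%) and 73 lower (0.822%) in Lyve1CreCsf1rfl/fl Tregs. In a design this small, the block leaves even less from which to estimate the spread between tumors. Among the 7 that were higher were Itgae at 1.05 and 1.57 against 2.13 and 2.31 (0.74 ± 0.16, adjusted p = 0.00881 in the blocked edgeR fit), and Izumo1r at 0.350 and 0.675 against 0.593 and 1.47 (0.94 ± 0.20, adjusted p = 0.00734), both of the identity list. Of 13 tested genes of the resting list, Tcf7 (1.45 ± 0.33), S1pr1 (1.19 ± 0.27) and Satb1 (0.71 ± 0.18) were higher in the blocked fit. Tcf7 stood at 0.0856 and 0.181 against 0.134 and 0.652, so each run had the higher value in the Lyve1CreCsf1rfl/fl tumor although the genotypes overlapped. In Foxp3-negative Cd4 T cells it was also highest in Lyve1CreCsf1rfl/fl run 2, at 2.05. S1pr1 stood at 0.177 and 0.472 against 0.181 and 1.11 without the cells Scrublet called, nearly equal in run 1. Il1rl1, the interleukin-33 receptor of tissue Tregs, was higher by 1.39 ± 0.35. The genes that were lower in the blocked fit included Ccl2 (-2.29), the phagocyte genes Csf1r (-1.27), Tgfbi (-1.19), Fcgr1 (-1.34) and Ms4a6d (-1.22), the last 3 chosen after their values were seen, and 3 of 25 interferon-stimulated genes, Isg15 (-0.44), Irf7 and Ifit2. Isg15 stood at 10.03, 10.7, 6.60 and 9.24, and its log2 difference was 0.02 without the cells Scrublet called, in the fit without the block. The same values without those cells were 0.57 for Itgae, 0.83 for Izumo1r and 0.85 for Il1rl1, and 1.27, 0.79 and 0.68 for Tcf7, S1pr1 and Satb1. Those of the phagocyte genes were -0.38 for Csf1r, -0.55 for Tgfbi, -0.74 for Fcgr1 and -0.33 for Ms4a6d, and those of Irf7 and Ifit2 were -0.20 and 0.04.

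Leaving out 1 tumor leaves a genotype with 1 tumor, whose spread cannot be measured, so calls of such fits are not counted. The log2 difference of Ccl2 then ran from -2.61 to -1.99. With all 4 tumors but without the cells Scrublet called, 0 genes were called and 137 had an unadjusted p under 0.05.

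**Figure D5:**
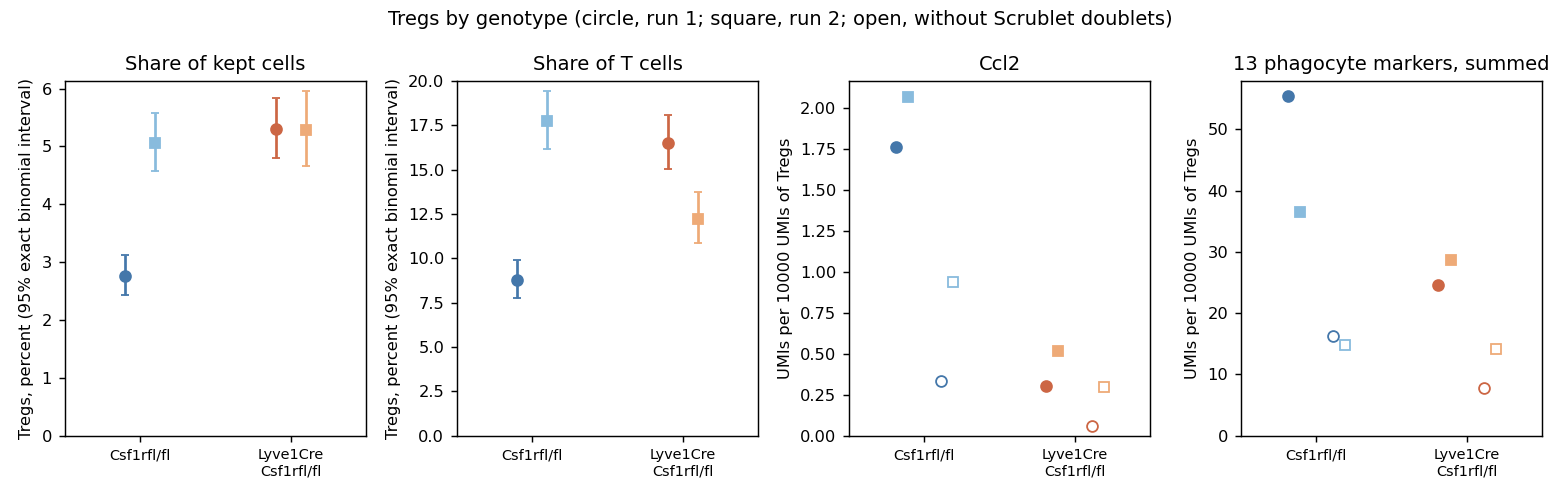
By genotype, with circles for run 1 and squares for run 2: Tregs as percent of kept cells and of T cells (bars are 95% exact binomial intervals), and Ccl2 and the sum of 13 phagocyte markers in Tregs as UMIs per 10000 (filled, all Tregs; open, without the cells Scrublet called). Ccl2 lies at 1.76 and 2.06 in Csf1rfl/fl Tregs and at 0.304 and 0.516 in Lyve1CreCsf1rfl/fl Tregs, and the shares of T cells overlap between the genotypes.

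Whether genotype differences were particular to Tregs was tested as the interaction of genotype and class with Foxp3-negative Cd4 T cells. Of 8451 genes, 46 (0.544%) were called, 5 in the direction of Tregs (0.0592%) and 41 in the other (0.485%). With library totals in place of TMM factors the split was 12 and 39. The 5 were Arl5a, Tnfrsf9, Rgs1, Ikzf2 and AW112010. Ikzf2, with the levels given above, had a log2 difference of genotype effects of 0.59 ± 0.15 (adjusted p = 0.0463), and Tnfrsf9 of 0.68 ± 0.15 (adjusted p = 0.0161). For both, the gap between the classes was wider in the Lyve1CreCsf1rfl/fl tumors, where levels in Foxp3-negative Cd4 T cells were lowest. Among the 41 was Tgfbi, a matrix protein of phagocytes, at 3.23, 3.42, 1.30 and 1.70 in Tregs and at 2.70, 3.79, 2.78 and 4.12 in Foxp3-negative Cd4 T cells (-1.30 ± 0.18, adjusted p = 8.07e-06). Without the cells Scrublet called, Tgfbi stood at 0.412, 0.979, 0.302 and 0.732 in Tregs and at 0.863, 1.75, 0.974 and 2.89 in Foxp3-negative Cd4 T cells, and its value of -1.01 did not pass. Of the phagocyte list, 2 of 10 tested genes were called in that direction, Lyz2 and Fcer1g, and the list had a median of -0.77. Of the tumor and stromal list, 2 of 4 were called in that direction, Sparc and Cald1. Sparc stood at 0.296, 0.00532, 0 and 0 in Tregs and at 0.0128, 0, 0.404 and 0.256 in Foxp3-negative Cd4 T cells. The whole list summed to 0.115, 0.0595, 2.43 and 0.742 in the latter cells, and the part of such RNA in these calls was not tested.

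The calls depended on the setting. At least 2 Foxp3 UMIs left 35, and relative log expression scaling 44. With the run as a replicate block 4 genes were called, namely Tgfbi (-1.31 ± 0.20, adjusted p = 0.00112 in the blocked edgeR fit), Igfbp4, Gzmd and Clu, the last 3 named after their values were seen, and 15 were called without the cells Scrublet called, of which 9 were among the 46. Ikzf2 then had a value of 0.32 and Tnfrsf9 of 0.49, and neither passed. DESeq2 called 1 gene, Col6a3.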

How the data were processed

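The mice, tumors and hashtags are those described above. The authors deposited UMI counts per gene and cell barcode and hashtag counts, made with Cell Ranger 6.0.1 on mm10 from 10x Chromium 3' v2 libraries; the annotation version is not given in the sources used here. They also deposited SCTransform-corrected values (a score, made with Seurat), which held the cells they kept as singlets with under 5% mitochondrial reads, outside clusters almost all of 1 tumor. These values were used only for the cell names. The raw table held 53361 barcodes and 32285 genes.

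The higher hashtag count set the tumor of a cell, and 11 kept cells with equal hashtag counts were left out, which left 28418. UMIs were summed per tumor and class and tested with edgeR 4.0.16 in R 4.3.3 (filterByExpr, TMM factors, robust quasi-likelihood fit), with Benjamini-Hochberg adjustment over all genes tested. Shares were compared by exact two-sided permutation over tumors, with 95% Clopper-Pearson intervals. Doublets were called with Scrublet in scanpy 1.11.5 (Python 3.11.15) at an expected rate of 0.2, and were kept in the main values. Sub-groups were clustered within Tregs without gate genes. DESeq2 1.42.0 and other settings were alternatives.

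The members and gene lists were chosen with earlier results of these data known. Named were the 5 markers, list members, and among called genes with a mean log2 CPM of at least 5, the 8 or fewer most raised and the 8 or fewer most lowered of those that went the same way in each run or tumor. The labels name 2 pooled runs, and the 4 tumors are told apart by the hashtag columns and a deposited table that pairs hashtag, tumor and genotype. Between genotypes, the edgeR p-values of the fit without the block rest on the spread between tumors of a genotype. Between classes and for the interaction, they rest on the spread over tumors of the difference between classes. The permutation p-values rest on reassigning the genotype labels among the 4 tumors. Same-numbered tumors shared a run, and their deviations from the genotype means correlated at r = 0.442 over 4232 genes of at least that mean, and at 0.199 over all 8878. In simulated data the genotype fit recovered 49 of 100 genes changed by 1 on the log2 scale and 99 of 100 changed by 2, with 15 false calls. The interaction fit recovered 49 and 93 of 100, with 21 false calls. The fit against Foxp3-negative Cd4 T cells recovered 99 and 99 of 100, with 15 false calls. The simulated tumors were independent and had no run effect, and only genes with a mean log2 CPM of at least 5 were changed. These counts therefore need not hold for the real tumors.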

Additional observations from a re-analysis of the deposited data

Results flagged for a closer look

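Of the 46 genes whose genotype effect in Tregs differed from that in Foxp3-negative Cd4 T cells by the interaction test in edgeR (adjusted p under 0.05), 13 were named by the rule and are given here. Values are the log2 genotype effect (Lyve1CreCsf1rfl/fl over Csf1rfl/fl) in Tregs minus that in Foxp3-negative Cd4 T cells. They were 0.78 for Arl5a, 0.68 for Tnfrsf9, 0.60 for Rgs1, 0.59 for Ikzf2 and 0.49 for AW112010. Arl5a, a small GTPase of vesicle traffic, stood at 2.45, 3.40, 4.36 and 4.001 per 10000 in Tregs and at 1.58, 2.28, 1.83 and 1.27 in Foxp3-negative Cd4 T cells. Rgs1, a regulator of chemokine receptor signaling, stood at 5.35, 5.20, 4.77 and 6.02 against 6.58, 6.61, 3.92 and 4.59. Values in the other direction were -2.31 for Cstdc4, -1.80 for Pilra, -1.72 for Nupr1, -1.55 for AI506816, -1.54 for Gzmc, -1.52 for Cxcl9, -1.30 for Tgfbi and -1.21 for Pla2g7. Several were leading genes of Treg sub-groups, given here per 10000 against the other Tregs. They were Gzmc in sub-group 7 (22.6 against 0.203), Cstdc4 in 6 (7.07 against 0.130), Cxcl9 (3.29 against 0.123) and Tgfbi (6.71 against 0.568) in 3, and AI506816 in 2 (1.78 against 0.470). The part of these sub-groups in the values was not tested. Without the cells Scrublet called, 12 of the 13 were tested in edgeR, Cstdc4 being left out by the filter on low counts, and none of the 12 passed, with values of 0.58 for Arl5a, 0.49 for Tnfrsf9, 0.43 for Rgs1, 0.32 for Ikzf2 and 0.40 for AW112010, and of -1.84 for Pilra, -0.69 for Nupr1, -0.99 for AI506816, -2.03 for Gzmc, -1.03 for Cxcl9, -1.01 for Tgfbi and -1.85 for Pla2g7.

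A further 739 cells passed the Treg gate in the raw table but were not among the cells the authors kept, and they enter no gene comparison here.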

How the results depend on the processing

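Between genotypes, where 1 gene was called, 0 were called after thinning to 2000 UMIs, 0 with at least 2 Foxp3 UMIs, 0 without the cells Scrublet called (137 at an unadjusted p under 0.05), 34 with no filter on low counts, 80 with the replicate block, 3 with library totals in place of TMM factors (an alternative chosen after seeing the data), and 14 to 120 when 1 tumor was left out. Against Foxp3-negative Cd4 T cells (171 called), the counts were 57 by DESeq2, 326 with no filter, 34 with no replicate block, 358 without the cells Scrublet called and 89 to 324 with 1 tumor left out. Against CD8 T cells (2456), they were 1600 after thinning, 1259 by DESeq2 and 1103 with no replicate block, and against cycling Tregs (3797) 1475, 2123 and 2429. For genotype by cell type (46) they were 5, 1, 79 with no filter, 4 with the replicate block, 15 without the cells Scrublet called and 3 to 86 with 1 tumor left out. Thinning used fewer UMIs and cells, and the cause of the other moves was not tested.

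Over the barcodes of the raw table under 5% mitochondrial UMIs whose assigned hashtag was at least 3 times the other, the genotype difference was -0.284 points for the Treg share of all such cells and -1.61 for that of T cells. The Treg shares of T cells were 8.70%, 17.1%, 15.4% and 7.18% over these barcodes. The last, of Lyve1CreCsf1rfl/fl run 2, was 12.2% among the kept cells, from which lymphocyte clusters of that tumor had been removed. Among the kept cells, the difference of 1.10 in the Treg share of T cells ran from -3.39 to 5.59 with 1 tumor left out. The replicate block left the share differences at 1.38, 1.10 and 2.79 points by construction. Between genotypes, Ctla4 turned to -0.20 without the cells Scrublet called and -0.13 after thinning, and Tnfrsf4 to -0.16, -0.18 and, with the replicate block, -0.041. With 1 tumor left out, the log2 differences ran from -0.10 to 0.146 for Ctla4, from -0.57 to 0.431 for Tnfrsf4 and from -0.0379 to 0.537 for Ikzf2. After thinning, Cxcr4 turned to -0.070 and Eno1 to 0.030 against cycling Tregs. Of the other values of named genes, 498 of those against Foxp3-negative Cd4 T cells kept direction and call and 71 lost the call. The numbers were 1908 and 247 against CD8 T cells, and 2045 and 227 against cycling Tregs. With 2 tumors a genotype, shares could not reach p under 0.333, and depth limited the shallowest Tregs, of which thinning left out 282.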

Other observations

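With ribosomal protein (Rpl and Rps) and mitochondrial genes left out, the most abundant transcripts of Tregs held few lineage genes. Among the protein-coding genes left, Tmsb4x, which binds actin monomers, stood at 155, 153, 163 and 133 per 10000 UMIs and Actb at 131, 131, 107 and 119. The interferon-stimulated gene Ifi27l2a was the fifth by mean level of all genes left, behind also Malat1 and Gm42418. It stood at 123, 82.1, 110 and 86.2, higher in run 1 than in run 2 for both genotypes. The MHC class I gene H2-K1 stood at 26.5, 30.7, 31.2 and 30.8, and B2m, the shared light chain, at 35.5, 40.9, 36.3 and 40.9. Gm42418, which overlaps ribosomal RNA sequence, stood at 155, 375, 171 and 289, higher in run 2 for both genotypes.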
